A study of Mus musculus with 4 samples.

Results

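Enamel is built from a small set of secreted proteins, and 7 of their genes were followed here across the cells of the growing mouse incisor: the matrix genes Amelx, Ambn, Enam, Amtn and Odam and the protease genes Klk4 and Mmp20. They were chosen by symbol, and they are 7 of the 32285 genes in the files. Ameloblasts, the epithelial cells that make enamel, first secrete a protein-rich matrix and later remove it while the mineral hardens. Amelogenin (Amelx), ameloblastin (Ambn) and enamelin (Enam) form the matrix of the secretory stage, in which the metalloprotease Mmp20 processes them. Amelotin (Amtn) and the odontogenic ameloblast-associated protein (Odam) are known from the maturation stage, in which the serine protease Klk4 degrades what remains of the matrix.

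Single cells came from the proximal part of the lower incisor, the end at which this continuously growing tooth renews itself, of mice at postnatal day 15. WT mice and Din-KO mice gave 2 libraries each. Din-KO mice lack Din (4930453N24Rik) in every tissue: a gene-trap allele was crossed to a germline Cre, which removed the selection cassette and the second exon and left a LacZ reporter. How many mice each library came from is not stated in what was read here. The p-values between genotypes below thus measure only the spread between libraries, which may be in part technical. Where classes of cells are compared within each library, the p-values measure how far that difference varied from library to library. The library names in the labels take one form for both libraries numbered 1 and another for both numbered 2, and the libraries numbered 1 held 3903 (WT) and 4575 (Din-KO) cells against 1560 and 1272 for those numbered 2. The targeted gene was at 33.1, 24.6, 17.3 and 21.0 UMIs per 1000000 (counts per 1000000, CPM) in all cells. The libraries are in the order WT 1, WT 2, Din-KO 1 and Din-KO 2, which is kept below. Over all cells the gene was thus lower in both Din-KO libraries but still counted. In epithelium-like cells, at 38.5, 20.5, 17.4 and 13.0 CPM, it was lower in both as well. In mesenchyme-like cells, at 36.3, 28.3, 22.8 and 28.2 CPM, Din-KO 2 was level with WT 2. Reads at the 3′ end from outside the deleted exon can contribute to these counts.

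Of 11310 cells that passed the filters, 579 were epithelium-like, with 145, 122, 177 and 135 from the 4 libraries in that order. The 7 genes took no part in clustering or naming. The 579 cells fell into 5 subclusters. Of these, 3 were ameloblast-like: the largest (177 cells, led by Caln1, Chst1 and Specc1), one led by Dspp and Plxnc1 (75 cells) and one led by Car6, Rcan1 and Slc24a4 (50 cells). The others were cycling-like (173 cells) and, led by Krt15 and Sfrp5, stellate reticulum or outer enamel epithelium-like (104 cells, called the outer subcluster below). When the epithelium-like cells were clustered at a resolution of 1, the subcluster led by Car6 kept its 50 cells but could not be named from the markers. Epithelial markers summed to between 2158 and 3806 CPM in the epithelium-like cells and to between 24.6 and 28.9 CPM in immune cells, and mesenchymal markers summed to between 473 and 1053 CPM in the epithelium-like cells. Of the barcodes of kept cells, 11 occurred in more than 1 library, and 2 of them belonged to epithelium-like cells.

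The genes lie in 4 places of the genome (GRCm38, GENCODE annotation). Odam (chr5:87885029-87894174), Amtn (chr5:88376108-88385916), Ambn (chr5:88455991-88468531) and Enam (chr5:88487975-88506049) follow each other on the plus strand of chromosome 5 within 621.0 kb, and only 19.4 kb separate Ambn from Enam. Amelx (chrX:169176114-169187200, minus strand) lies within Arhgap6, which is read from the other strand: all 7 annotated Arhgap6 transcripts span it and 0 have an exon that overlaps it. Klk4 (chr7:43881160-43885804) and Mmp20 (chr9:7628231-7674979) are on the plus strand. Of these 7 genes, 5 belong to the secretory calcium-binding phosphoprotein (SCPP) family, to which the dentin and bone genes Dspp, Dmp1 and Ibsp also belong. The promoters below, from RefSeq (GRCm38.p6), run from 130 bases before to 20 bases after the start of transcription on the strand of the gene. They are shown for 3 matrix genes that were high together in the secreting subclusters (Amelx, chrX:169187190-169187339; Ambn, chr5:88455861-88456010; Enam, chr5:88487845-88487994) and for 2 genes that were high in the subcluster led by Car6 (Odam, chr5:87884880-87885029; Klk4, chr7:43881030-43881179). Capitals mark the letters of the motifs searched, on either strand.
Amelx: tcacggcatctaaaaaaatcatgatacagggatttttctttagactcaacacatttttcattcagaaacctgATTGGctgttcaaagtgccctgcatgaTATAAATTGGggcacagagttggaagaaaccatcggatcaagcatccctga
Ambn: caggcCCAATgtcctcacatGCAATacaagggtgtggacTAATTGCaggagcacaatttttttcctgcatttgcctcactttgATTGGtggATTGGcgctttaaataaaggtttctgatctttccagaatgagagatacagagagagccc
Enam: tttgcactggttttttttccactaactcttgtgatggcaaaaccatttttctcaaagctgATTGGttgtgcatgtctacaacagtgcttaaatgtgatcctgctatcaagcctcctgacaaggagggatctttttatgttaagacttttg
Odam: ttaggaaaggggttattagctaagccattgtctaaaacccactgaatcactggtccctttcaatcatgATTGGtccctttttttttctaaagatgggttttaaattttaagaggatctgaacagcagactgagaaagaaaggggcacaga
Klk4: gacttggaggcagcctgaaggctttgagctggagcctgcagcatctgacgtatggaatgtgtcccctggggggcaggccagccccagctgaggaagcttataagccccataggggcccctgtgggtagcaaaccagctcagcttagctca
The CCAAT box (CCAAT, or ATTGG on the other strand) was found in the windows of all 5 matrix genes and in neither protease window, against 24.2% of 32851 promoters of the same length. Its nearest copy began 26 bases before the start in Amelx, 39 in Ambn, 70 in Enam, 66 in Amtn and 62 in Odam. The TATA box (TATAAA) was in 2 of the 7 windows, 31 bases before the start in Amelx, where it overlaps a CCAAT box, and 58 in Mmp20, against 7.36% of promoters. Ambn alone held a homeodomain core (TAATTG, 3.76% of promoters) and, overlapping it, a C/EBP core (ATTGC, 13.5%), and none of the 7 held a Runx core (TGTGGT, 8.38%) or a GC box (GGGCGG, 29.1%). These are matches of letters in a window of 150 bases, and binding was not measured.

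The 7 genes together made up a large part of all RNA counted in epithelium-like cells, and by far most of it was Amelx. Their share of all UMIs summed over epithelium-like cells was 3.21% in WT 1, 35.4% in WT 2, 13.7% in Din-KO 1 and 22.0% in Din-KO 2. In single cells the share reached 33.1%, 65.3%, 54.4% and 58.3%, and 1 cell of WT 2 held 56157 UMIs of Amelx alone. Since the counts come from 3′ ends, levels can be compared between genes without regard to length. The 2 genotypes overlapped in this share, and WT 1 stood lowest of all 4 libraries.

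Amelx was at 27907 CPM in the epithelium-like cells of WT 1, 287852 in WT 2, 106966 in Din-KO 1 and 169916 in Din-KO 2. Ambn, in the same order, was at 2088, 48038, 21220.5 and 35298 CPM, and Enam was at 1769, 13948, 6861 and 8413 CPM. Mmp20 was the least variable of the 7, at 354, 1279, 719 and 764 CPM. For these 4 genes the order of the libraries was the same, with WT 1 lowest and WT 2 highest. The remaining genes divided the libraries more sharply. Amtn was at 0, 1559, 780.0 and 2681 CPM, Odam at 0.357, 1366, 3.57 and 2214, and Klk4 at 0, 129, 32.6 and 569. Din-KO 2 was highest in each of these 3, and WT 1 held 0 UMIs of Amtn and Klk4 and 1 of Odam, where a count of 0 allows up to 1.07 CPM.

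Epithelium-like cells held nearly all counts of most of these genes. Of all Amelx UMIs in kept cells, between 98.6% and 99.1% lay in epithelium-like cells, which were between 3.72% and 10.6% of cells. For Enam the share was between 97.4% and 99.4%. Amtn, Odam and Klk4 had between 93.2% and 99.3% of their UMIs there in the libraries numbered 2. In WT 1, 0 of 10 UMIs of Amtn, 0 of 10 of Klk4 and 1 of 2 of Odam lay in epithelium-like cells, and in Din-KO 1 78.9% of 19 UMIs of Odam did. Ambn and Mmp20 departed too. Only 51.4% of Ambn UMIs lay in epithelium-like cells in WT 1, against 97.6%, 94.6% and 97.9% in WT 2, Din-KO 1 and Din-KO 2. For Mmp20 the shares were 89.6%, 65.3%, 91.1% and 77.1%.

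Summed per library and compared with mesenchyme-like cells of the same library (edgeR quasi-likelihood test with the library as a block), all 7 genes were called higher in epithelium-like cells, where 15.4% of 13244 genes were called higher and 36.0% were called in either direction. The clusters compared were built from the other genes of the same cells, so this describes where the genes were counted. The log2 fold change was 9.97 (SE 0.37) for Amelx, 9.93 (SE 0.50) for Enam and 6.97 (SE 0.97) for Ambn, with edgeR adjusted p at most 0.00255. It was 9.85 (SE 0.36) for Odam, 9.49 (SE 1.21) for Amtn and 6.86 (SE 0.91) for Klk4. Odam was higher in epithelium-like cells in 4 of 4 libraries, though on 1 UMI in WT 1, and Amtn and Klk4 in 3 of 4, since WT 1 held none of them there. Mmp20 had the smallest difference, 4.98 (SE 0.70, edgeR adjusted p = 0.00262).

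Other genes of enamel formation, taken from lists, were placed in the same comparison. Of 6 tested genes of enamel secretion and phosphorylation, 5 were called higher in epithelium-like cells. The acid phosphatase gene Acp4 had a log2 fold change of 10.03 (SE 0.31) and the secretory kinase gene Fam20c one of 2.92 (SE 0.20). Of 10 tested genes of ion transport and pH, 4 were called higher, among them the chloride channel gene Cftr at 7.25 (SE 0.36) and the sodium and calcium exchanger gene Slc24a4 at 4.39 (SE 0.72). In the adhesion list 9 of 10 were called higher, with the integrin gene Itgb6 at 8.99 (SE 0.36), and in the list of dental epithelial transcription factors 8 of 14, with Sox21 at 9.62 (SE 0.19). The medians of these 4 lists were 2.07, 0.93, 7.46 and 2.77 on the log2 scale, where the median over all genes tested was -0.04. When mesenchyme-like cells were tested alone, Cftr, Itgb6 and Sox21 fell below the filter on low counts. They passed it here through the epithelium-like cells. Acp4 was at no more than 1.05 CPM in mesenchyme-like cells. The size of these 4 changes thus rests on very low levels in mesenchyme-like cells. The dentin and bone SCPP genes went the other way: 0 of 4 were called higher and 3 lower, of which Dmp1, a matrix gene of odontoblasts and osteocytes, had a log2 fold change of -7.04 (SE 0.33). All 9 tested genes of the basal and cervical loop list were called higher, but Krt5, Krt14, Krt15, Krt17 and Trp63 of that list were also among the markers that named the epithelium, as was Cdh1 of the adhesion list.

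Within the epithelium the genes fell into 2 patterns, best seen by subcluster. Amelx, Ambn, Enam and Mmp20 were high in the largest ameloblast-like subcluster of every library. Amtn, Odam and Klk4 were nearly confined to the subcluster led by Car6, which held 1 cell in WT 1, 20 in WT 2, 4 in Din-KO 1 and 25 in Din-KO 2. The clusters were formed without the 7 genes but from genes of the same cells, so these levels are given as a description, with no test.

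In the largest ameloblast-like subcluster (22, 61, 41 and 53 cells in WT 1, WT 2, Din-KO 1 and Din-KO 2), Amelx was at 109429.7, 365498, 286887 and 355782 CPM. Ambn was at 8175, 56548, 54889 and 64779 CPM there, and Enam at 6957, 15025, 15228 and 14966 CPM. WT 1 was the lowest in each, and in the other 3 libraries Enam differed little. The cells of WT 1 in this subcluster depend on the integration of the libraries: without it the subcluster led by Caln1 held 1 cell of WT 1 against 61, 36 and 33, and one led by Dspp held 19 of WT 1. The CPM of Mmp20 was close over the 4 libraries, at 1382, 1793, 1560.0 and 1669.5. The enamel genes together took 12.6%, 43.9%, 35.9% and 43.7% of all UMIs in this subcluster, which lowers CPM least in WT 1. The close CPM therefore does not show that Mmp20 was even relative to the other genes, where WT 1 would stand lower. In the same cells Klk4 was at 0, 0, 2.29 and 3.28 CPM, and Odam was at 0, 0.995, 0 and 9.84 CPM. Amtn was at 0, 4.48, 58.0 and 146 CPM, the highest of the 3 late genes there in WT 2, Din-KO 1 and Din-KO 2.

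In the subcluster led by Car6 the late genes were at their highest. Amtn was at 8104, 18119.8 and 14810.1 CPM in WT 2, Din-KO 1 and Din-KO 2, and it was counted in 90.0%, 100% and 100% of the cells. Klk4 was at 669, 759.7 and 3220.1 CPM, and Odam was at 7099, 73.7 and 12511 CPM. The 4 cells of Din-KO 1 thus held the most Amtn, Klk4 at a level near that of WT 2, and little Odam. The single cell of WT 1 held 0 UMIs of Amtn and Klk4. The early genes were still abundant in this subcluster: Amelx was at 276196, 86891 and 124962 CPM and Enam at 17523, 20609 and 11783 CPM in the same 3 libraries. Mmp20 was at 368, 1162 and 353 CPM, below its level in the largest subcluster in all 3 libraries.

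Of the 15 genes of the ion transport list, 11 had a higher CPM in these cells than in the largest subcluster in WT 2. In Din-KO 1 there were 8 and in Din-KO 2 11, with no test and no share of all genes beside them. The 7 enamel genes took 36.7%, 21.1% and 21.5% of UMIs here against 43.9%, 35.9% and 43.7% in the largest subcluster. This alone raises the CPM of the other genes here, so the counts are not read as a result about the list. In WT 1, which had 1 cell there, 3 were. Relt was lower in each of WT 2, Din-KO 1 and Din-KO 2, and Slc26a4 and Cldn16 were at 0 in both subclusters there. Car2, Car6 and Slc24a4 of the list are among the genes that lead the subcluster. Car6, which encodes a secreted carbonic anhydrase, was at 329.5 CPM in WT 2, 0 in Din-KO 1 and 730.4 in Din-KO 2. Slc24a4 was at 192, 96.4 and 513 CPM, and Wdr72, a gene of vesicle turnover in maturation ameloblasts, was at 89.1, 0 and 155 CPM. So the 4 cells of Din-KO 1 lacked counts of Car6 and Wdr72 as they nearly lacked Odam. Acp4, of the secretory list, was at 671, 556 and 577 CPM in these cells and at 977, 441 and 948 CPM in the largest subcluster of the same libraries.

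The subcluster led by Dspp (26, 14, 31 and 4 cells) held less Amelx and Ambn than the largest. Amelx was at 489.6, 192659, 79693 and 71793 CPM, Ambn at 29.8, 35352, 3393 and 3289.8, and Enam at 6.39, 15111, 7229 and 7404. In WT 1 these levels were far below those of the other libraries, although the cluster analysis had grouped the cells together. Dspp itself, a dentin gene also known to be expressed for a short time in young ameloblasts, was at 85.1, 539.8, 1526 and 708 CPM in this subcluster. It was at 1677, 2.99, 32.1 and 3.28 CPM in the largest subcluster, so in WT 1 the cells of the largest subcluster held Dspp beside Amelx and those of the other libraries hardly did. Shh, of the basal and cervical loop list, was likewise at 513 CPM in the largest subcluster of WT 1 and at 49.3, 51.9 and 22.4 in the other libraries.

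Cycling-like and outer cells had little of any of the 7 genes. Amelx was at 69.6, 4427, 226 and 195 CPM in cycling-like cells and at 78.6, 341, 118 and 827 in outer cells, where immune cells of the same libraries were at 23.6, 842, 94.8 and 499 CPM. Cycling-like cells were above the immune level in 3 libraries, by most in WT 2, and below it in Din-KO 2. Much of this lay in single cells. In WT 2, 1 cell held 487 UMIs of Amelx, where all cycling-like cells held 981 UMIs of the 7 genes. In Din-KO 1, 1 cell held 112, where all held 241. Ambn in the outer subcluster was at 4.91, 69.5, 17.2 and 1129 CPM, and the value of Din-KO 2 stood apart from the rest. Amtn, at 49.1 CPM, was counted in 28.0% of these 25 cells of Din-KO 2 and in 0 UMIs of the outer cells of the other libraries.

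**Figure D1:**
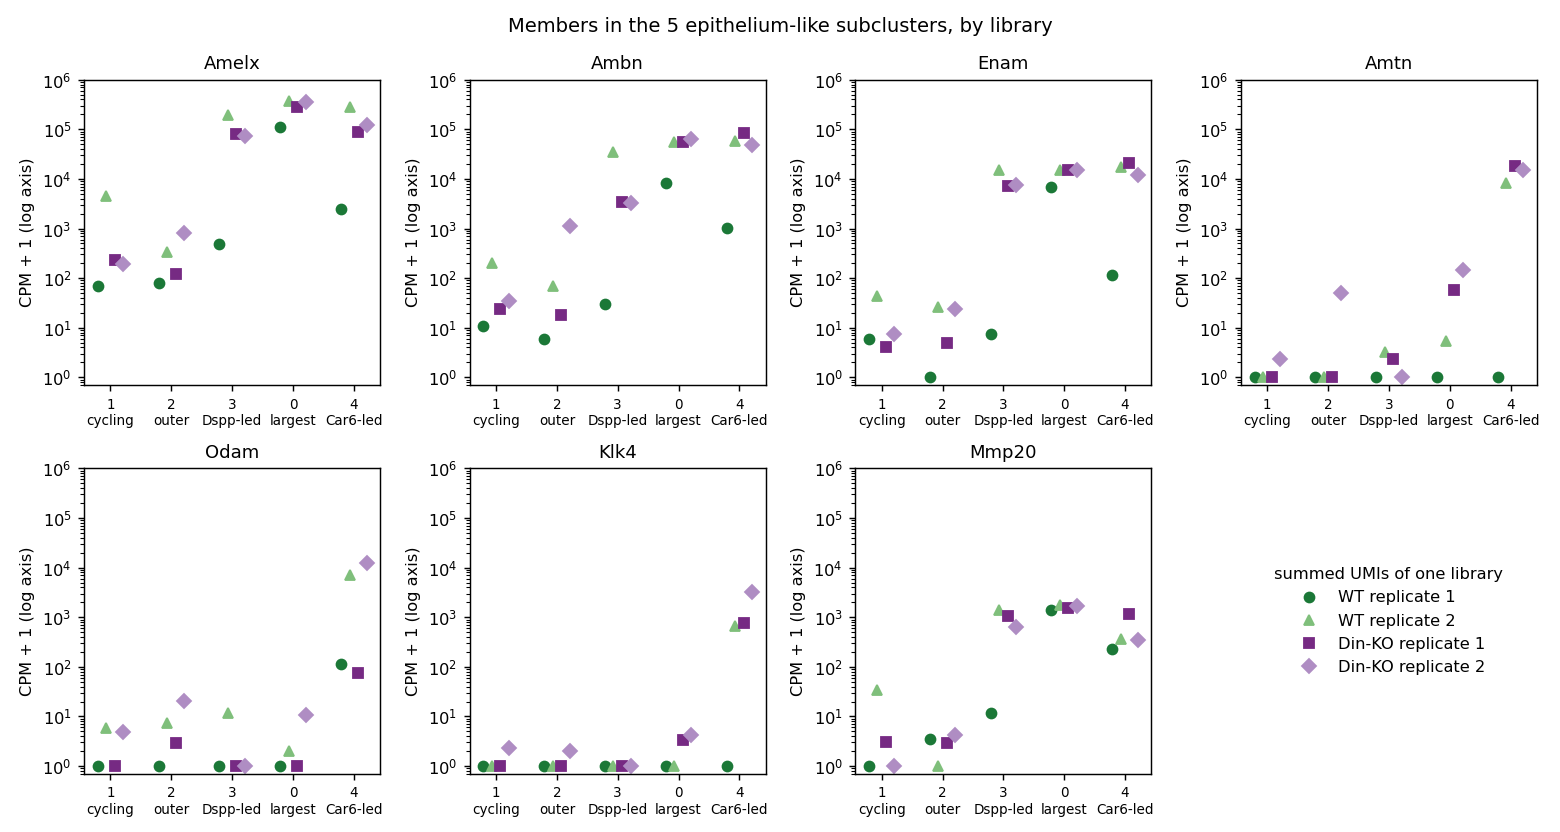
Level of each gene in the 5 epithelium-like subclusters. The vertical axis is CPM plus 1 on a log scale, and each point is the summed UMIs of 1 library (circles WT 1, triangles WT 2, squares Din-KO 1, diamonds Din-KO 2). Amelx, Ambn, Enam and Mmp20 are high in the largest subcluster, where Mmp20 lies between 1382 and 1793 CPM, while Amtn, Odam and Klk4 are high only in the subcluster led by Car6.

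The same order appeared cell by cell without clusters. Epithelium-like cells were divided by their Amelx UMIs per 10000 UMIs of all genes other than the 7. In cells with over 5000 Amelx UMIs per 10000 (63 in WT 2, 21 in Din-KO 1 and 43 in Din-KO 2, with 0 in WT 1), Ambn was at 1109, 1165 and 1267 UMIs per 10000 and Enam at 301, 244 and 297. Mmp20 was at 30.3, 25.2 and 31.0 in those cells. These 3 genes rose with Amelx through the upper bins. Klk4 did not. It was at 0.0776, 0 and 1.31 UMIs per 10000 in the cells richest in Amelx, and at 11.1, 3.86 and 51.5 in cells with 100 to 1000. Odam was at 143, 0.405 and 149.8 UMIs per 10000 in those intermediate cells and at 0.0689, 0 and 0.164 in the richest. Amtn was at 144, 45.6 and 328 against 1.15, 0.0320 and 3.63. In Din-KO 2 the highest Odam level, 289, lay in the 6 cells with 10 to 100 Amelx UMIs per 10000. The intermediate bins hold few cells (8, 14 and 8), and in each only some carried the late genes, 25%, 21.4% and 37.5% for Klk4.

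**Figure D2:**
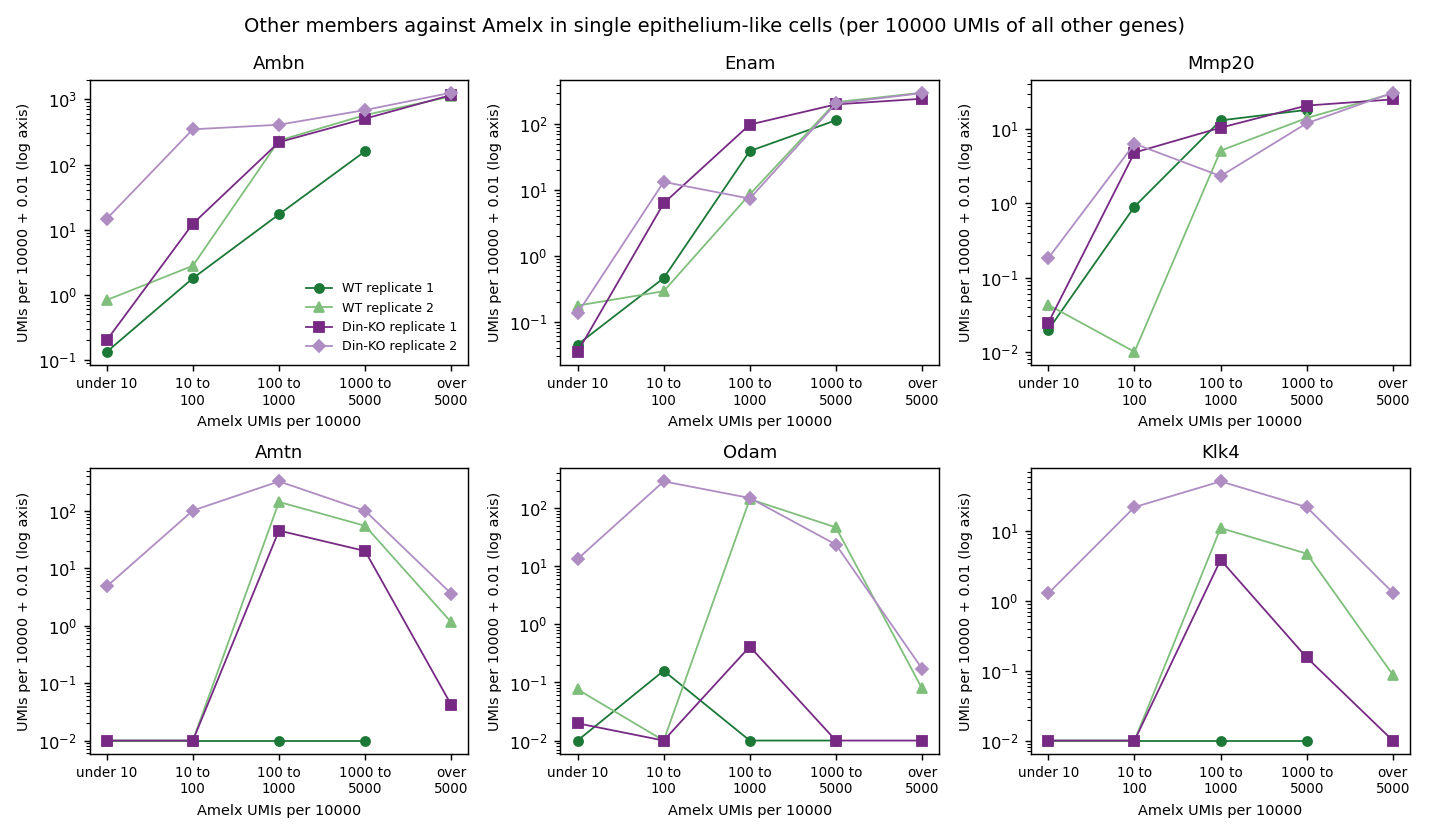
The other 6 genes in epithelium-like cells grouped by their Amelx level, both in UMIs per 10000 UMIs of all genes other than the 7. The vertical axis is a log scale with 0.01 added, and each line is 1 library. Ambn, Enam and Mmp20 are highest in the cells richest in Amelx, and Klk4 is highest in the middle, at 51.5 in Din-KO 2.

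Across single ameloblast-like cells the correlations of log levels showed the same 2 patterns. Amelx and Enam had Pearson correlations of 0.90, 0.85, 0.86 and 0.88 over 49, 95, 76 and 82 cells of WT 1, WT 2, Din-KO 1 and Din-KO 2. Amtn and Klk4 correlated at 0.75, 0.81 and 0.90 in the 3 libraries that held both, and Odam and Klk4 at 0.92, 0.82 and 0.80. Between the patterns the sign turned in the libraries numbered 2, where Enam and Odam were at -0.63 (WT) and -0.79 (Din-KO), while in Din-KO 1 they were at 0.08. Ambn stood between, with a correlation with Odam of -0.04 and -0.20 in the libraries numbered 2. The cells of a library share its depth and any free RNA, so these correlations are descriptive.

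Genes outside the 7 with the most similar level were sought over 57 sums of cells (each cell class or epithelial subcluster in each library with at least 10 cells), by the Pearson correlation of the log2 level with the mean of the 7. The 10 highest of 8905 genes were Akain1 (0.953), Acp4 (0.941), Otos (0.927), Sox21 (0.926), Bnc1 (0.924), Steap1 (0.915), Gal3st4 (0.908), Cldn20 (0.906), Galnt6 (0.906) and Mylk3 (0.896). Taken singly, the genes again parted. Enam was nearest to Akain1 (0.971) and Acp4 (0.970), and Mmp20 to Plekhh1 (0.922), Slc41a2 (0.919) and Slc13a5 (0.912). Klk4 was nearest to Ngef (0.988), Slc24a4 (0.984) and Wdr72 (0.983), and Amtn to Slc24a4, Odam and Wdr72. These sums share libraries, and most are not epithelial and hold little of these genes, so the values describe shape only.

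Detection in single cells was compared after each cell had been thinned to 2000 UMIs. A UMI of Amelx alone says little here, because Amelx was also counted in immune cells. Before thinning it was counted in 18.9%, 99.5%, 49.2% and 94.5% of immune cells of WT 1, WT 2, Din-KO 1 and Din-KO 2. In epithelium-like cells the shares were 53.1%, 100%, 72.9% and 100%. How much of the count in immune cells was RNA free in the suspension was not tested. The median depths were 8649.5, 4446.5, 9461.5 and 5733 UMIs in immune cells and 12661, 24145.5, 15535 and 22082 in epithelium-like cells. Thinned, the shares were 5.99%, 83.2%, 18.5% and 67.5% of immune cells against 30.1%, 97.5%, 50.8% and 80% of epithelium-like cells. A cell was therefore also counted as positive for a gene only when it held more UMIs than 99% of immune cells of its library, thinned alike.

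By that measure 22.4%, 79.5%, 40.1% and 57.8% of epithelium-like cells were positive for Amelx, and 16.1%, 73.8%, 37.9% and 52.6% for Enam. For Mmp20 the shares were 16.8%, 69.7%, 35.0% and 39.3%. The rank of the libraries was the same for these 3, but the bounds were unequal. A cell had to hold over 1 UMI of Enam, Amtn or Odam in the libraries numbered 2 and over 0 in those numbered 1. For Mmp20 the bound was over 1 UMI in Din-KO 2 and over 0 elsewhere. With any UMI counted, Mmp20 was in 50.4% of cells of Din-KO 2, and the rank was the same. Klk4 was found in 0 of 143, 6 of 122, 3 of 177 and 24 of 135 cells, and Odam in 0, 6, 0 and 15 of them. A count of 0 in 143 cells allows a share of up to 2.10%, and in 177 cells one of up to 1.69%.

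The early genes were found together. Of cells positive for Ambn, 18 of 18, 93 of 93, 59 of 59 and 77 of 85 were positive for Amelx. In the other direction the libraries differed, since Ambn was found in 18 of 32, 93 of 97, 59 of 71 and 77 of 78 cells positive for Amelx. Cells with Amelx but without Ambn were thus 14 in WT 1, 4 in WT 2, 12 in Din-KO 1 and 1 in Din-KO 2, but the bounds behind these counts were unequal. A cell had to hold over 1, 9, 2 and 9 UMIs of Amelx and over 1, 2, 1 and 3 of Ambn. The 8 cells with Ambn but without Amelx by these bounds were from Din-KO 2, where unthinned all 135 epithelium-like cells held a UMI of Amelx. Mmp20 was found without Amelx in 1, 1, 0 and 1 cells.

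Cells with Odam lay within those with Amtn and Klk4. All 6 cells of WT 2 and all 15 of Din-KO 2 with Odam also held Amtn and Klk4. Of 10 and 23 cells with Amtn in these libraries, 6 and 19 held Klk4, and in Din-KO 1, 3 of 7 did, with 0 holding Odam. In Din-KO 2, 5 of 24 cells with Klk4 lacked Amtn and 4 of 23 with Amtn lacked Klk4. Enam was found in 3 of the 6 and 6 of the 15 cells with Odam, and Mmp20 in 4 and 2 of them. Ambn was found in all 21 of these cells. Amelx was found in 6 of 6 and 9 of 15.

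The number of the 7 genes found per cell averaged 0.678, 3.17, 1.52 and 2.59. Most cells had either none or 4: 109 of 143, 24 of 122, 103 of 177 and 48 of 135 cells had none, and 18, 74, 50 and 51 had 4. At most 9 cells of a library had 6, and 1 cell of WT 2 and 1 of Din-KO 2 had all 7. Counting any single UMI as detection, the averages were 0.797, 3.52, 1.66 and 3.07.

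**Figure D3:**
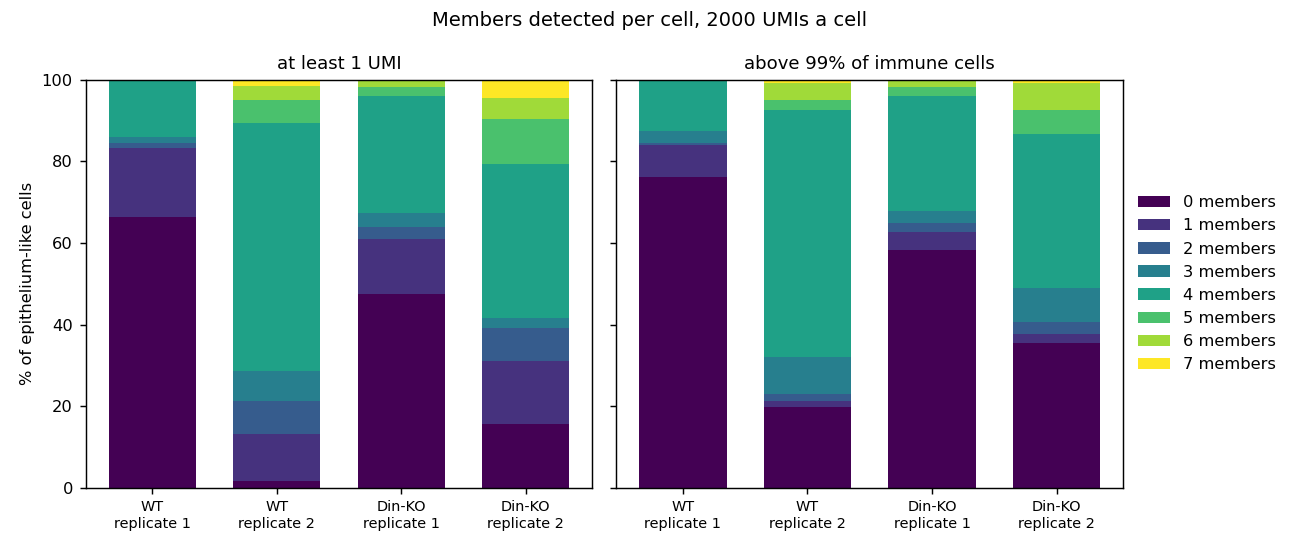
Share of epithelium-like cells (vertical axis, percent) by the number of the 7 genes found, after thinning to 2000 UMIs, in each library. The left panel counts any UMI and the right panel counts more UMIs than 99% of immune cells held, where 74 of 122 cells in WT 2 and 18 of 143 in WT 1 had 4 genes.

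Whether the loss of Din changed these genes was asked in epithelium-like cells first. For all 7 genes the WT and Din-KO libraries overlapped, and none was called (edgeR adjusted p = 1.00 for each). The log2 fold change, Din-KO over WT, was -0.55 (SE 1.26) for Amelx, -0.20 (SE 1.44) for Ambn, -0.39 (SE 1.08) for Enam and -0.45 (SE 0.78) for Mmp20. It was 0.77 (SE 2.44) for Amtn, 0.35 (SE 3.02) for Odam and 1.87 (SE 2.27) for Klk4. The standard error exceeded the change for each of the 7. Of 11493 genes 0.0% were called, 145 had an unadjusted p under 0.05, and DESeq2 called 6. Among all genes, 17.9% did not overlap between genotypes with Din-KO higher and 3.31% with Din-KO lower.

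The 2 libraries with each number differed in the direction of these changes. Din-KO 1 was higher than WT 1 in all 7 genes, whereas Din-KO 2 was lower than WT 2 in Amelx, Ambn, Enam and Mmp20 and higher in Amtn, Odam and Klk4. Without WT 1 the log2 fold changes of Amelx, Ambn, Enam and Mmp20 were -1.46, -1.17, -1.28 and -1.20, and without WT 2 they were 2.45, 3.90, 2.24 and 1.20. None was called in either case. Odam was at 11.65 without WT 2 and -8.03 without Din-KO 2, and was not called in either. Counts were also simulated for this comparison, with a single spread for all genes estimated from these libraries. In them edgeR recovered 22% of genes changed 4-fold and 0% of those changed 2-fold, so most changes of that size would not be called. The simulation used neither the spread of the 7 genes themselves nor a shift between the libraries numbered 1 and 2. The shares recovered are therefore not those of the 7 genes.

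The libraries also differed in how many ameloblast-like cells they held. These were 33.8% (exact 95% binomial interval 26.2 to 42.1) of epithelium-like cells in WT 1, 77.9% (69.5 to 84.9) in WT 2, 42.9% (35.5 to 50.6) in Din-KO 1 and 60.7% (52.0 to 69.0) in Din-KO 2. The Din-KO mean was 51.8 ± 12.6% and the WT mean 55.8 ± 31.2% (SD, n = 2 each). The difference was -3.99 percentage points (two-sided exact permutation p = 1.0, where 2 libraries against 2 can give no p below 0.333). Between libraries of the same number it was 9.14 points for those numbered 1 and -17.1 for those numbered 2. In subclusters made without integration the share was 13.8% in WT 1, with 77.9%, 37.9% and 55.6% in the others. At a clustering resolution of 1 the share of WT 2 was 61.5% and that of Din-KO 2 42.2%. There the subcluster led by Car6 could not be named and was not counted as ameloblast-like. A level summed over all epithelium-like cells takes in both this share and the RNA per cell.

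Within ameloblast-like cells alone, Amelx was at 65652, 321164, 203357 and 276938 CPM in WT 1, WT 2, Din-KO 1 and Din-KO 2. Mmp20 was at 833, 1426, 1366 and 1245 CPM. The libraries lay closer together than over all epithelium-like cells, and WT 1 was again the lowest. The log2 fold changes, Din-KO over WT, were 0.23 (SE 1.16) for Amelx, 0.62 (SE 1.26) for Ambn, 0.36 (SE 0.86) for Enam and 0.20 (SE 0.52) for Mmp20. They were 1.61 (SE 2.33) for Amtn, 1.14 (SE 2.92) for Odam and 2.66 (SE 2.14) for Klk4. All 7 genes overlapped between genotypes again and none was called (edgeR adjusted p = 1.00), as 0.0% of 9634 genes were, with 56 at an unadjusted p under 0.05 and 5 called by DESeq2. Among all genes, 8.55% did not overlap with Din-KO higher and 7.27% with Din-KO lower. Klk4, at 0, 144, 62.1 and 928 CPM, was called only when the filter on low counts was dropped (edgeR adjusted p = 0.000145), and its log2 fold change was -0.46 without Din-KO 2.

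**Figure D4:**
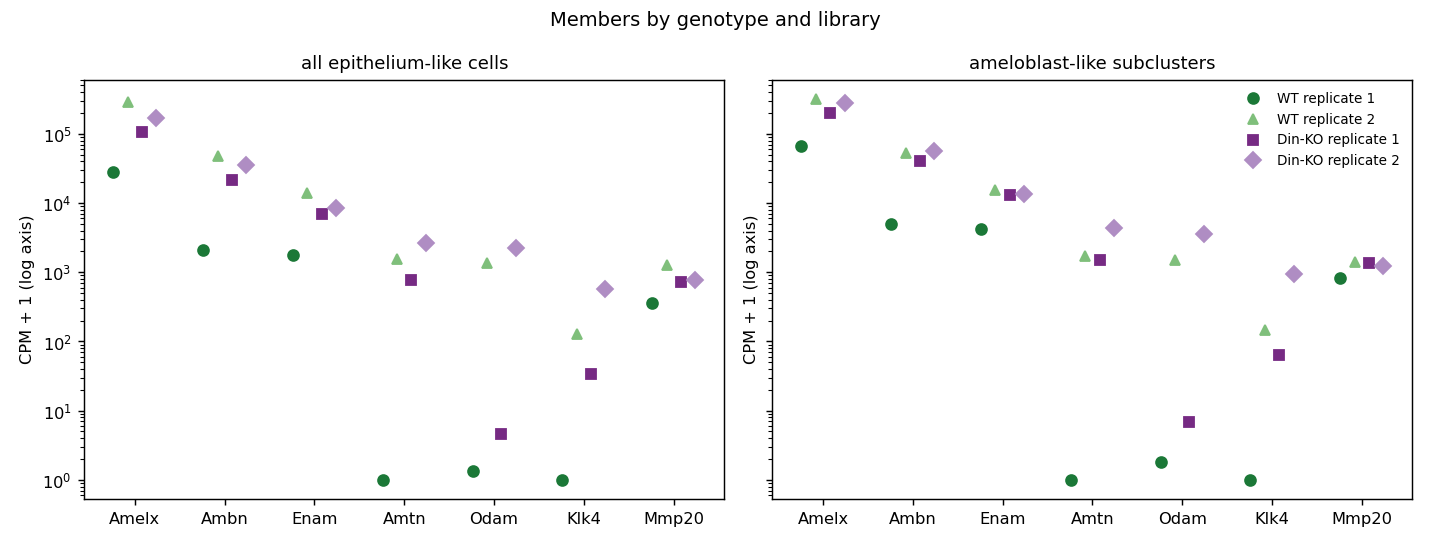
Level of each gene by library in all epithelium-like cells (left) and in ameloblast-like subclusters (right). The vertical axis is CPM plus 1 on a log scale, and each point is 1 library. WT libraries (circles and triangles) and Din-KO libraries (squares and diamonds) overlap for all 7 genes, and Mmp20 ranges from 833 to 1426 CPM on the right.

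Of the other genes of enamel formation, 0 were called between genotypes in any of the 6 lists in epithelium-like cells. Fam83h, Isl1, Itga6, Krt14, Nectin3 and Trp63 were higher in both Din-KO libraries than in either WT library, and Spp1 was lower in both. The other list genes tested overlapped between genotypes. Among all genes tested, 17.9% did not overlap with Din-KO higher and 3.31% with Din-KO lower. With a median log2 fold change of -0.04 over all genes tested, the medians were -0.26 in enamel secretion, 0.27 in ion transport, -0.09 in adhesion, 0.16 in transcription factors, -1.22 in the dentin and bone SCPP genes (3 tested) and -0.01 in basal and cervical loop genes. The lowest unadjusted p-values of each list belonged to Fam83h (log2 fold change 0.21, SE 0.36), Slc10a7 (-0.14, SE 0.30) and Fam20c (-0.38, SE 0.95) in the first. In ion transport they were Slc4a4 (0.69, SE 0.59), Slc4a2 (0.50, SE 0.78) and Slc24a4 (1.05, SE 1.98), and in adhesion Nectin3 (1.14, SE 0.64), Itgb6 (-0.54, SE 0.57) and Itga6 (0.22, SE 0.34). Among the transcription factors were Isl1 (0.49, SE 0.28) and Bcl11b (0.83, SE 0.58). The dentin and bone genes tested were Spp1 (-2.01, SE 0.97), Ibsp (-1.22, SE 1.19) and Dspp (-0.83, SE 1.13), and the basal list was led by Sfrp5 (2.48, SE 1.40), Trp63 (0.33, SE 0.28) and Shh (-0.63, SE 0.71). The edgeR adjusted p of each was 1.00. In ameloblast-like cells 0 were called as well, and the medians in the same order were 0.15, 0.82, 0.20, -0.02, -0.84 and 0.15.

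Outside the epithelium, Amelx in dental mesenchyme lay near the CPM of immune cells, while Ambn and Mmp20 in part did not. Immune cells, pooled over their classes, served as the reference for free RNA. The ratios are of CPM and take no account of depth, which was greater in odontoblast-like than in immune cells of each library. They therefore cannot tell how much of the Amelx in mesenchyme was free RNA, and this was not tested. Odontoblast-like cells are named for odontoblasts, the mesenchymal cells that make dentin, and whether each of them made dentin was not tested. In these cells Amelx was 0.66, 0.38, 0.62 and 1.13 times the immune level in WT 1, WT 2, Din-KO 1 and Din-KO 2. In dental pulp-like cells it was 1.38, 0.68, 1.04 and 0.71 times and in dental follicle-like cells 0.63, 0.48, 0.67 and 0.54 times. In odontoblast-like cells only Din-KO 2 was above 1, and in those with under 2 UMIs of all epithelial markers the ratios were 0.62, 0.43, 0.60 and 0.41. Against endothelium-like cells Din-KO 2 was at 2.05.

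Ambn was above the immune level in odontoblast-like and dental pulp-like cells of every library. In odontoblast-like cells it was at 246, 359, 332 and 466 CPM, against 13.6, 129.8, 22.0 and 109 in immune cells, a ratio of 18.1, 2.77, 15.1 and 4.28. In dental pulp-like cells it was at 208, 338, 146 and 220.1 CPM, a ratio of 15.3, 2.61, 6.66 and 2.02. In dental follicle-like cells the ratio was 1.01, 0.52, 0.73 and 0.55. The ratios were larger in the libraries numbered 1, whose immune level of Ambn was lower. The size of the ratio depends on the reference. In odontoblast-like cells it was 29.0, 2.57, 14.1 and 4.57 with macrophage-like cells left out of the reference and 21.4, 2.71, 9.68 and 7.21 against endothelium-like cells. There were 0.576, 0.154, 0.232 and 0.218 UMIs of Ambn per UMI of Amelx in immune cells, 0.917, 0.167, 0.253 and 0.223 in follicle-like cells, and 15.8, 1.12, 5.61 and 0.83 in odontoblast-like cells. The part of free RNA in these levels was not tested.

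Ambn was also given for cells with few counts of the markers that named the epithelium. In odontoblast-like cells with under 2 UMIs of all epithelial markers, Ambn was 18.8, 3.48, 15.6 and 3.62 times the immune level, and in such dental pulp-like cells 16.7, 2.68, 7.14 and 2.28 times. Thinned to 2000 UMIs, Ambn was counted in 34.2%, 51.9%, 38.9% and 47.5% of odontoblast-like cells and in 3.40%, 28.8%, 4.06% and 19.2% of immune cells. The median depths were 14955, 20633, 11101 and 19395 UMIs in odontoblast-like cells before thinning.

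Odontoblast-like cells came from 3 clusters, and Ambn was highest in the one led by Dmp1 (94 cells). It was at 442, 631, 692 and 627 CPM there, with a UMI in every cell. In the cluster led by Smpd3 and Tac1 (601 cells) it was at 209.6, 397, 237 and 544 CPM, and in the one led by Bglap and Dspp (135 cells) at 119.7, 219, 247 and 199 CPM. Outside these, a cluster led by Vcan and Sytl4 among dental pulp-like cells (1190 cells) had Ambn at 254, 461, 186 and 467 CPM. A cluster that could not be named from the markers, led by Ifitm1, Stbd1 and Hey1 (466 cells), had it at 378, 727, 272 and 723 CPM, above the cluster led by Dmp1 in the libraries numbered 2 and below it in those numbered 1.

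Mmp20 was concentrated in fewer of these cells. It was at 23.8, 513, 51.3 and 259 CPM in odontoblast-like cells, against 1.51, 1.64, 2.08 and 3.97 CPM in immune cells, which rest on 11, 5, 20 and 10 UMIs. In dental pulp-like cells it was at 0.810, 2.98, 0.861 and 1.54 CPM, at or near the immune level. Nearly all of it lay in the cluster led by Bglap and Dspp, at 388, 1261, 742 and 946 CPM, counted in 30%, 93.8%, 75% and 77.3% of its cells. Ameloblast-like cells, for comparison, were at 833, 1426, 1366 and 1245 CPM. That cluster held 10, 65, 16 and 44 cells. The cluster led by Dmp1 was at 0, 109.8, 0 and 10.2 CPM, and the one led by Smpd3 at 1.12, 2.34, 0 and 2.36 CPM.

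Among the odontoblast-like clusters, Ambn was highest in the cluster led by Dmp1 and Mmp20 in that led by Bglap and Dspp. Epithelial markers summed to 110.1, 64.7, 96.0 and 63.7 CPM in the cluster led by Bglap and Dspp, with 8, 3, 7 and 4 of 11 markers at 0, and mesenchymal markers to between 104551 and 154762 CPM. The sum was higher there than in the clusters led by Smpd3 (18.9 to 34.2 CPM) and Dmp1 (1.96 to 17.3 CPM). It was also higher than in immune cells (24.6, 25.6, 28.9 and 25.4 CPM) and lower than in epithelium-like cells, where it was at least 2158 CPM. All mesenchyme-like cells together were at 114.9, 42.1, 112.7 and 50.9 CPM. The cluster was thus below them in WT 1 and Din-KO 1 and above them in WT 2 and Din-KO 2. In WT 2 and Din-KO 2 the cluster led by Dmp1 had more Mmp20 than the one led by Smpd3 but a lower sum. The sums there were 7.85 and 13.1 CPM against 21.5 and 18.9 CPM. A sum does not show which markers made it up. In all odontoblast-like cells against other mesenchyme-like cells (edgeR test given below), Krt5, Cdh1 and Krt14 of these markers were not called. Their log2 fold changes were -1.11 (SE 0.38), -1.07 (SE 0.35) and -0.10 (SE 0.25). Krt15, Krt17 and Trp63 were not tested there. The part of epithelial RNA in these Mmp20 levels was not tested. Amelx in the cluster led by Bglap and Dspp was at 4.79, 307, 55.3 and 199.8 CPM, below the immune level in each library. In odontoblast-like cells with under 2 UMIs of epithelial markers, Mmp20 was 2.53, 184, 13.8 and 45.7 times the immune level. Over all odontoblast-like cells it was higher in each library, at 15.7, 313, 24.6 and 65.1 times. A bound in UMIs takes out deeper cells first. It can also take out more of the cluster led by Bglap and Dspp, which had the highest sum of these markers and nearly all Mmp20. The cells left per cluster were not counted, so the drop does not tell where the Mmp20 came from. Against endothelium-like cells the ratio over all odontoblast-like cells was 108 in WT 2 and 68.4 in Din-KO 1, the libraries in which it could be formed.

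**Figure D5:**
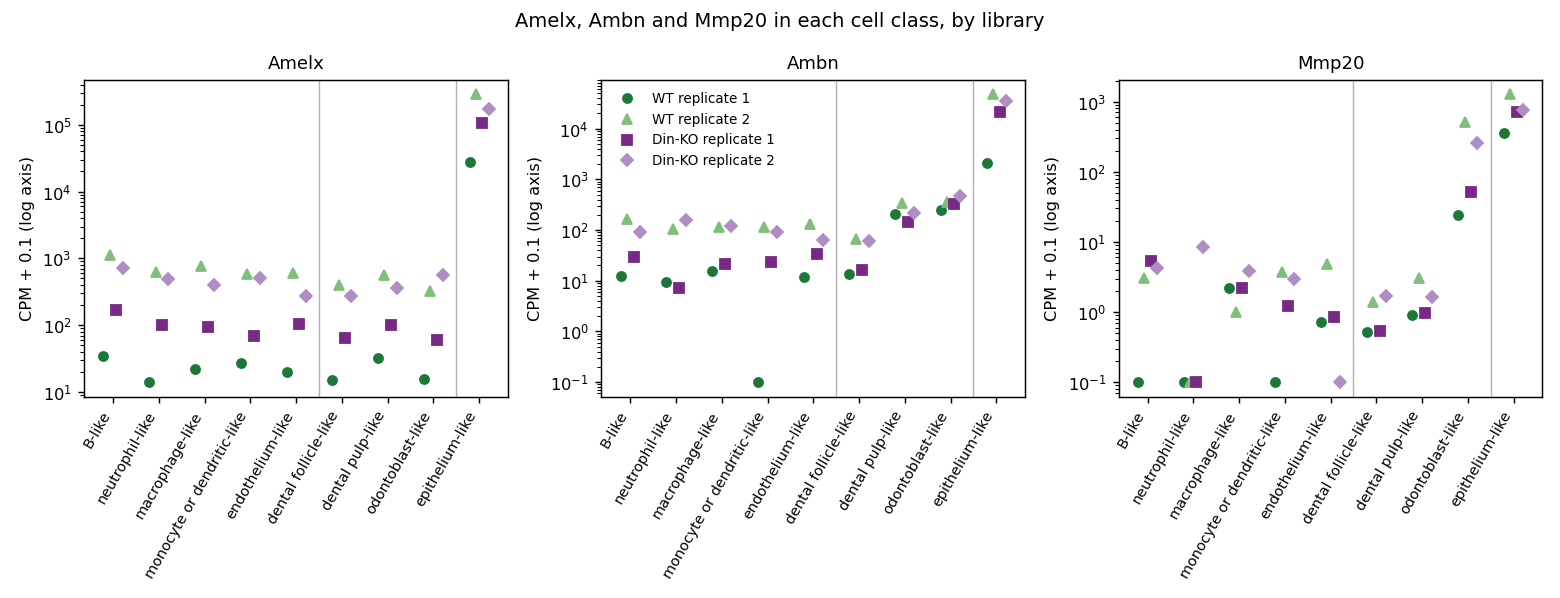
Amelx, Ambn and Mmp20 in cell classes outside the epithelium and in epithelium-like cells. The vertical axis is CPM plus 0.1 on a log scale, and each point is the summed UMIs of 1 library. Amelx is far higher in the epithelium than in any other class, Ambn is above the immune level in dental pulp-like and odontoblast-like cells, and Mmp20 is above it in odontoblast-like cells, at 513 CPM in WT 2.

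Set against the other mesenchyme-like cells of the same library (edgeR quasi-likelihood test with the library as a block), Mmp20 and Ambn were called higher in odontoblast-like cells, where 18.2% of 12722 genes were called higher and 38.6% in either direction. These clusters too were built from the other genes of the same cells, so this describes where the genes were counted. In the other mesenchyme-like cells Mmp20 was at 0.724, 1.77, 0.766 and 1.57 CPM. It passed the filter on low counts through the odontoblast-like cells. The log2 fold change was 7.06 (SE 0.51, edgeR adjusted p = 0.000278) for Mmp20 and 1.63 (SE 0.26, adjusted p = 0.00442) for Ambn. Without each library in turn it stayed between 6.43 and 7.55 for Mmp20 and between 1.35 and 1.92 for Ambn. The other mesenchyme-like cells took in dental follicle-like cells, where Ambn was at 1.01, 0.52, 0.73 and 0.55 times the immune level. Dental pulp-like cells were at 15.3, 2.61, 6.66 and 2.02 times, against 18.1, 2.77, 15.1 and 4.28 in odontoblast-like cells. The unnamed cluster led by Ifitm1, Stbd1 and Hey1, which also held Ambn, was in neither class. The call is thus not read as an Ambn level particular to odontoblast-like cells. Enam (0.69, SE 0.42, edgeR adjusted p = 0.234) and Amelx (edgeR adjusted p = 0.999) were not called, and Amtn, Odam and Klk4 fell below the filter on low counts. Of the list of enamel secretion and phosphorylation, 3 of 4 tested genes were called higher: Fam20a (4.49, SE 0.29), Fam20c (3.01, SE 0.22) and Slc10a7 (0.72, SE 0.14). Dspp and Dmp1 were called higher too, but they belong to the markers of these cells. Fam20c phosphorylates secreted matrix proteins, and Fam20a assists it.

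Between genotypes, Ambn in mesenchyme-like cells was at 177, 208, 159 and 223 CPM in WT 1, WT 2, Din-KO 1 and Din-KO 2, and the libraries overlapped. Its log2 fold change was -0.05 (SE 0.25, edgeR adjusted p = 1.00). Of 15118 genes 0.0% were called, with 162 at an unadjusted p under 0.05 and 18 called by DESeq2.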

How the data were processed

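The 4 libraries were made with the 10x Genomics 3′ kit version 3.1. The authors deposited a matrix of UMI counts per gene and barcode for each, made per the submitters' processing notes with bcl2fastq, Cell Ranger 6.0.2 and Seurat against mm10 (GRCm38), without normalization. The files sum to 50423655, 32198098, 54348039 and 33076212 over 6613, 3257, 6958 and 3674 barcodes (WT 1, WT 2, Din-KO 1 and Din-KO 2). A barcode was taken as a cell if it had 1000 or more genes and no more than 10% of UMIs from mitochondrial and 3% from hemoglobin genes (median 9178, 11587.5, 8016 and 11486.5 UMIs).

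Seurat 5.3.0 (R 4.3.3) integrated the libraries on 2000 variable genes and 30 components without the 7 genes, and clustered them at a resolution of 1 (epithelium-like cells at 0.5). Clusters were named from marker lists, and 855 cells stayed unnamed. Scrublet scores were used only in an alternative, since the caller marked 87, 8, 4 and 8 cells. UMIs were summed per library and class. CPM is per 1000000 UMIs of that sum. All genes were tested with edgeR 4.0.16 by its quasi-likelihood test after TMM scaling and its own filter of low genes, with p-values adjusted by Benjamini-Hochberg and a threshold of 0.05. DESeq2 1.42.0, other size factors, other filters and cell selections, thinned cells, the replicate number as a block and each library left out were alternatives, and only the largest ameloblast-like subcluster was added after seeing the data. Tests were checked on simulated counts. Permutation tests used scipy 1.17.1 and doublet scores scanpy 1.11.5 under Python 3.11.15. Similar genes were ranked on log2(CPM + 10) among genes reaching 50 CPM. Intervals (exact, 95%) and limits for a count of 0 (3 counts) cover counting error only, and free RNA was not removed.

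The 7 genes and all gene and marker lists were chosen with earlier results of these data known. The text names the 7 genes, from each list genes past the threshold or else the 3 with the smallest unadjusted p, the 10 genes most like the 7, and leading genes of clusters. List genes given by subcluster, those not overlapping between genotypes and the epithelial markers in odontoblast-like cells were chosen after their values were seen. So were the mesenchymal clusters singled out for Ambn and Mmp20. Markers came from the lists, with none of the 7 among them. 1 gene that this rule would name is not reported here. No protein sequences were used here.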

Additional observations from a re-analysis of the deposited data

Results flagged for a closer look

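Barcodes that failed the filters on cells were outside the main comparisons. A wider filter (500 or more genes and no more than 20% mitochondrial UMIs) took in some of them. It gave 244, 159, 246 and 203 epithelium-like cells (WT 1, WT 2, Din-KO 1 and Din-KO 2). With it none of the 7 genes was called between genotypes. Some barcodes that failed the main filters were rich in these genes. In Din-KO 2, 57 such barcodes held at least 5% of their UMIs in the 7 genes. They carried 9231 UMIs of Odam, 9709 of Ambn, 2627 of Amtn, 743 of Klk4 and 147 of Mmp20, each more than in the same kind of barcode of either WT library. Amelx and Enam, at 15120 and 687 UMIs, were below the 18777 and 735 of WT 2. The corresponding counts were 77 for Odam, 3147 for Ambn, 165 for Amtn, 40 for Klk4 and 86 for Mmp20 in the 50 barcodes of WT 2. In the 8 barcodes of WT 1 they were 110 for Ambn and 17 for Mmp20 and 0 for the other 3, and the 29 barcodes of Din-KO 1 held 1370 for Ambn, 40 for Mmp20 and 0 for Amtn, Odam and Klk4. Of the 57 barcodes, 40 had too few genes and 30 too many mitochondrial UMIs. The Odam count is close to the 9889 UMIs in the 135 kept epithelium-like cells of the same library. Whether these barcodes are damaged cells or debris was not tested. In Din-KO 1 none of these counts was above that of WT 2.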

How the results depend on the processing

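No change of a setting called any of the 7 genes between genotypes, except that without a filter on low counts 1 of 7, Klk4 (log2 fold change 2.63), was called in ameloblast-like cells, together with 49 genes in all. DESeq2 called 6, 5 and 18 genes in epithelium-like, ameloblast-like and mesenchyme-like cells, where edgeR called 0, and without the filter edgeR called 10 in mesenchyme-like cells. The sign of small changes moved: in epithelium-like cells Ambn was at 0.013 in thinned cells and 0.13 in cells chosen one by one, and in ameloblast-like cells Mmp20 was at -0.043 in subclusters made without integration, where the difference in the share of ameloblast-like cells was 0.87 points. Thinned to 2000 UMIs, 4 of 4 of these genes still tested were called between epithelium and mesenchyme (2111 genes in all) and 1 of 2 between odontoblast-like and other mesenchyme-like cells (1743 in all), where fewer genes passed the filter and Mmp20 did not. The largest ameloblast-like subcluster alone, chosen after seeing the data, gave 0 calls, with Amelx at 0.45 and Mmp20 at 0.10. Over all results 363 of the values from other settings were rated the same, 11 moved, 7 changed sign and 1 became called. A fold change was rated the same if it kept direction and call, and a count if it stayed within a set ratio. Means without a test had to stay within the SD of the libraries, and differences in share had to keep their sign. With each library left out, 163 values were rated the same, 4 moved and 21 changed sign.

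Leaving out each library in turn moved the log2 fold changes between genotypes in epithelium-like cells from -1.46 to 2.45 for Amelx, -1.17 to 3.90 for Ambn, -1.28 to 2.24 for Enam, -0.47 to 15.76 for Amtn, -8.03 to 11.65 for Odam, -1.44 to 13.25 for Klk4 and -1.20 to 1.20 for Mmp20. In ameloblast-like cells they ran from -0.60 to 2.20 for Amelx, -0.31 to 3.64 for Ambn, -0.40 to 2.002 for Enam, -7.24 to 11.33 for Odam, -0.46 to 13.10 for Klk4 and -0.32 to 0.96 for Mmp20. Values above 10 set Din-KO against WT 1 alone, which held next to no counts of the gene, and are no measure of size. Ambn in mesenchyme-like cells ran from -0.31 to 0.20, the difference in ameloblast-like share from -26.0 to 18 points, and the counts of genes called from 0 to 3 between genotypes in mesenchyme-like cells, 2960 to 4136 between epithelium and mesenchyme and 3272 to 4047 for odontoblast-like cells. A lone library was taken to vary like the other group.

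Libraries share numbers in their titles, but nothing in the labels says what a number marks, and with 2 of each the numbers cannot establish a pairing. Deviations of libraries with the same number correlated at 0.52 in epithelium-like, 0.51 in ameloblast-like and 0.87 in mesenchyme-like cells, over 9516, 7480 and 13498 genes. With the replicate number as a block, the log2 fold changes in epithelium-like cells were 0.45 for Amelx, 1.31 for Ambn and 0.47 for Enam, none of them called, and 149 genes were called in mesenchyme-like cells.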
